A study of Mus musculus with 36 samples.

Results

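The Hedgehog pathway genes described here are 10 mouse genes chosen by name from 51734 gene symbols in the count table: the ligand Shh, the co-receptors Gas1, Boc and Cdon, the receptor Ptch1, the ligand-binding inhibitor Hhip, the transducer Smo and the transcription factors Gli1, Gli2 and Gli3. All 10 passed the filter on low counts and are among 20511 genes tested. They were read in 18 RNA-seq libraries, 3 in each of 6 groups. The cells were E14 mouse embryonic stem cells (ESC), grown with LIF, and neural precursor cells (NPC) made from them with retinoic acid (RA) and harvested on day 4. At each stage there were wild-type cells (WT), a line labelled MLL3/4 dCD (dCD below), in a study of cells with and without the catalytic activity of the histone methyltransferases MLL3 and MLL4, and a line labelled MLL2 dTAG (MLL2dTAG below), dTAG being a degron tag. The labels list dTAG-13, the compound that sends a tagged protein to degradation, for each of the 18 libraries, WT and ESC included. The stated dose is 2 µM, given to differentiating cells starting on day 1, and the exposure of ESC is not given in the sources used here. Each genotype is 1 cell line, so the edit and the line cannot be told apart, and RNA counts check neither catalytic activity nor protein loss. The labels do not say whether replicates were separate cultures, so p-values measure the spread between these libraries, which may be technical.

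Hedgehog ligands are secreted proteins that bind the receptor patched. Unbound patched holds the membrane protein smoothened inactive, and ligand binding releases it, after which smoothened acts in the primary cilium to turn GLI transcription factors from repressors into activators. Gas1, Boc and Cdon present the ligand to patched, Hhip binds and limits it, and Ptch1, Gli1 and Hhip are themselves transcribed in answer to the signal. In the embryonic neural tube, Shh comes from the notochord and the floor plate and sets ventral cell identities. MLL2 is known to place H3K4 trimethylation at CpG-rich promoters through a domain that binds unmethylated CpG, and MLL3 and MLL4 are known mainly as enhancer H3K4 monomethyltransferases.

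Total counts per library ranged from 19430860 to 46041277, and 3 counts correspond to 0.0662 to 0.160 CPM (counts scaled to library size with TMM factors). ESC WT replicate 2 stood apart from the other libraries of its group: chi-square per degree of freedom was 8.38 and 10.5 in its 2 pairs, against 2.19 to 4.43 in the other 16 replicate pairs, so results that use ESC WT are also given without it where a call ended or began or a called change moved by over 1.5 times. Summed pluripotency markers (8 genes) were 2753 to 2888 CPM in ESC WT, 14.9 to 15.8 CPM in NPC WT, 13.6 to 15.8 CPM in NPC dCD and 95.7 to 99.8 CPM in NPC MLL2dTAG. Summed neural progenitor markers (8 genes, 7 of them at 1 CPM or more in each NPC group) were 149 to 153 CPM in NPC WT, 311 to 351 CPM in NPC dCD and 199.7 to 203 CPM in NPC MLL2dTAG. NPC also held endoderm markers, at 233 to 238 CPM in WT, 219.6 to 224 CPM in dCD and 533 to 547 CPM in MLL2dTAG. Mesenchymal markers in NPC were at 726 to 744, 903 to 989 and 1043 to 1058 CPM in the same order. These libraries are bulk RNA, so fewer cells of a type and less RNA per cell cannot be told apart, and the part of these marker differences in the results below was not tested.

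Promoter sequences were matched by symbol in RefSeq (GRCm38.p6) for 7 of the 10 genes: Ptch1, Hhip, Smo, Cdon, Gas1, Gli2 and Gli3. In windows of 250 bases before to 50 bases after the start, Ptch1 held 47 CpG, Gli3 39, Hhip 30, Gli2 28, Smo 17, Gas1 17 and Cdon 3. The median over 32851 promoters was 7, with quartiles of 3 and 20. Of the 7, 6 thus lay above the median and Cdon lay at the lower quartile. The upstream 250 bases are shown for the receptor Ptch1 and for Hhip and Gas1, whose changes in the edited lines were among the largest below, with each CpG, the dinucleotide that the MLL2 domain reads, in capitals. The windows are chr13:63565736-63565985 for Ptch1, chr8:80058009-80058258 for Hhip and chr13:60177536-60177785 for Gas1, all on the minus strand.
Ptch1: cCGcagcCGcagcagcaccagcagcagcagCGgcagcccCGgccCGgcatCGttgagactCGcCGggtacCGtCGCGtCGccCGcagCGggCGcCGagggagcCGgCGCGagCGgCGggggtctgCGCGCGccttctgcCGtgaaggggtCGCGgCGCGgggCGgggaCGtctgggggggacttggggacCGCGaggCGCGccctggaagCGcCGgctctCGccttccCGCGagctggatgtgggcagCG
Hhip: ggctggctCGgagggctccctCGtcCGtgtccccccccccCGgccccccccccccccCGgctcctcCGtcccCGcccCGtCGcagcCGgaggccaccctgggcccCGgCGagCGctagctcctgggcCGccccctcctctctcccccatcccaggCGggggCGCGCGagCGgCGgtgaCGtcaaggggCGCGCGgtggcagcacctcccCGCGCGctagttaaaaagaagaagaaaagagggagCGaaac
Gas1: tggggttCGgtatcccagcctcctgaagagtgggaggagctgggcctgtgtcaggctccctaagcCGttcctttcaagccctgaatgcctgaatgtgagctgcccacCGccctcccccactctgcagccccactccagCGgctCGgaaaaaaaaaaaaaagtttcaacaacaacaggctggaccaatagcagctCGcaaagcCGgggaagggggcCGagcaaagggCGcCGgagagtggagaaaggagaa
The Ptch1 window belongs to a start inside the longer annotated gene, and the Gas1 window ends upstream of the GENCODE start. The Cdon window (chr9:35451826-35452125) also lies inside the annotated gene, which starts at 35421128, so its low CpG count is that of an internal start. The Gli3 window (chr13:15463473-15463772) lies just inside its gene. The GLI-binding consensus TGGGTGGTC or its reverse complement GACCACCCA occurred in 0 of the 7 windows and in 83 of the 32851 promoters (0.253%). At that share a match in 7 windows was unlikely from the start, so its absence does not show that these genes lack GLI sites.

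In ESC WT, per kilobase of merged exon, the order of levels was Ptch1 (17.6 CPM per kb), Gli2 (13.2), Gli1 (11.2), Smo (10.3), Cdon (7.74), Gli3 (2.23), Boc (2.08), Gas1 (1.25), Hhip (0.0452) and Shh (0), and no neighbours overlapped in their 3 libraries. In NPC WT on the same scale it was Gas1 (94.5), Smo (39.8), Cdon (19.0), Ptch1 (15.4), Boc (13.1), Gli3 (12.9), Gli2 (11.5), Gli1 (10.3), Hhip (2.89) and Shh (2.63), where Boc overlapped Gli3 and Hhip overlapped Shh. ESC WT thus carried RNA of the receptor, the transducer and the GLI factors with no read of Shh. The other ligand genes, Ihh and Dhh, did have reads in ESC WT. In NPC WT the co-receptor Gas1 and the transducer Smo led. The plot of levels shows each gene in each library.

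**Figure D1:**
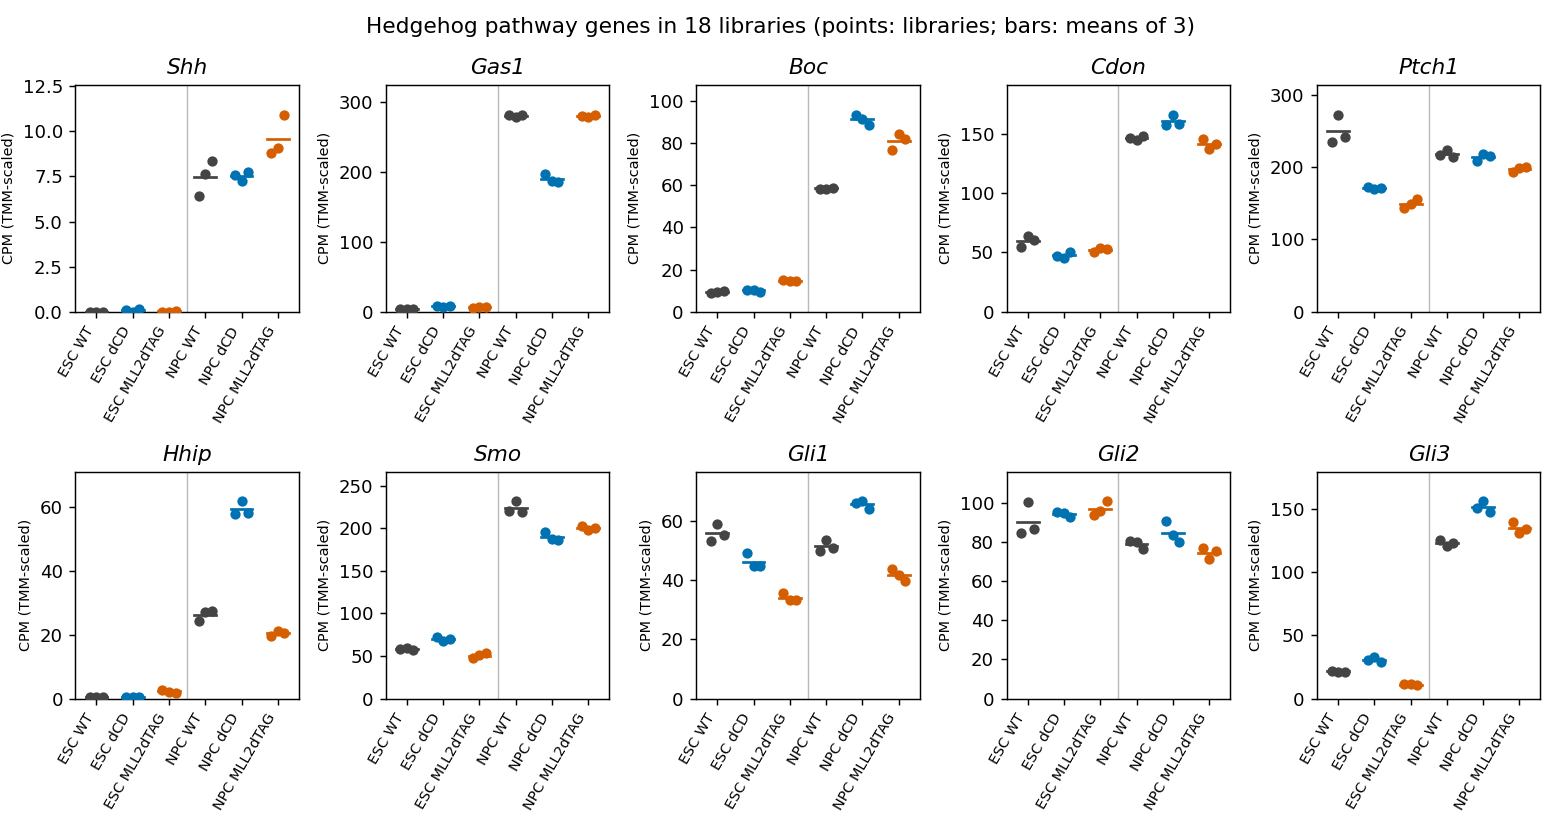
Level of each of the 10 genes in CPM (TMM-scaled, linear axis from 0, 1 panel per gene), with 1 point per library and a bar at the mean of 3, for WT (grey), dCD (blue) and MLL2dTAG (orange) in ESC (left of the line) and NPC (right). Shh, Gas1, Boc and Hhip are low in ESC and high in NPC in every line, while Ptch1, Gli1 and Gli2 differ little between stages.

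Shh, the sonic hedgehog ligand (chromosome 5, 28456815 to 28467256, minus strand, GRCm38), had 0 counts in each of the 3 ESC WT libraries. ESC dCD had 2, 0 and 4 counts in replicates 1 to 3, and ESC MLL2dTAG had 0, 0 and 2. In NPC WT it stood at 6.43, 7.64 and 8.38 CPM, from 203, 287 and 300 counts. All NPC libraries lay far above all ESC libraries. NPC dCD had 7.58, 7.23 and 7.74 CPM, inside the WT range. NPC MLL2dTAG had 8.81, 9.05 and 10.9 CPM, each above the highest WT library. Against 3 counts over the group, Shh was at least 197-fold higher in NPC WT than in ESC WT. In dCD the ratio of NPC to ESC, which rests on 6 ESC counts, was 93.1 (exact 95% interval 42.6 to 255, counting error only), and in MLL2dTAG, on 2 ESC counts, it was 469 (130 to 3880). These intervals take each count as an independent read. The ESC counts above 0 were all even, so the intervals may be too narrow. The 2 annotated antisense and noncoding neighbours on the opposite strand, 9530036O11Rik and Gm26894, reached at most 0.168 and 0.356 CPM.

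Gas1, a membrane-anchored co-receptor (chromosome 13, 60174405 to 60177365, minus strand), was at 3.41, 3.52 and 4.21 CPM in ESC WT, 7.85, 7.00 and 8.65 CPM in ESC dCD, and 5.50, 6.58 and 6.58 CPM in ESC MLL2dTAG. Both edited ESC lines lay above WT without overlap. In NPC it was at 280.4, 278 and 281 CPM in WT, 196, 186 and 185 CPM in dCD, and 279, 278 and 281 CPM in MLL2dTAG. NPC dCD alone was low among the NPC groups. Boc, an immunoglobulin-family co-receptor (chromosome 16, 44485049 to 44558897, minus strand), was at 8.78, 9.19 and 9.82 CPM in ESC WT, 10.5, 10.3 and 9.58 CPM in ESC dCD and 15.3, 14.6 and 14.6 CPM in ESC MLL2dTAG. In NPC, Boc was at 58.3, 58.2 and 58.8 CPM in WT, 93.5, 91.3 and 88.7 CPM in dCD and 76.7, 84.4 and 81.7 CPM in MLL2dTAG. Both edited lines exceeded WT in every NPC library. Cdon, the close relative of Boc (chromosome 9, 35421128 to 35507652, plus strand), ranged from 54.5 to 64.2 CPM in ESC WT, 45.3 to 50.4 CPM in ESC dCD and 50.3 to 53.7 CPM in ESC MLL2dTAG. In NPC it ranged from 145 to 148 CPM in WT, 158 to 166 CPM in dCD and 137 to 145 CPM in MLL2dTAG. Cdon thus had the narrowest ratio between line means of the 3 co-receptors in NPC (141 to 161 CPM).

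Ptch1, the receptor (chromosome 13, 63508328 to 63573598, minus strand), was at 235, 273 and 241 CPM in ESC WT, 172, 169.9 and 171 CPM in ESC dCD, and 143, 149 and 155 CPM in ESC MLL2dTAG. The 3 ESC groups were separate, and replicate 2 was the highest of WT. In NPC, Ptch1 was at 217, 224 and 214 CPM in WT, 208, 218 and 216 CPM in dCD, and 193, 199 and 200.4 CPM in MLL2dTAG, and WT and dCD overlapped. Hhip (chromosome 8, 79965851 to 80058006, minus strand) had 8, 12 and 12 counts in the ESC WT libraries, or 0.426, 0.398 and 0.408 CPM. ESC dCD, at 0.598, 0.331 and 0.373 CPM, overlapped WT, while ESC MLL2dTAG, at 2.56, 2.17 and 1.85 CPM, lay above both. In NPC, Hhip was at 24.4, 26.9 and 27.4 CPM in WT, 57.8, 61.7 and 58.1 CPM in dCD, and 19.5, 21.0 and 20.6 CPM in MLL2dTAG. The line with the highest Hhip in ESC was thus the lowest in NPC.

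Smo, the transducer that patched holds in check (chromosome 6, 29735503 to 29761365, plus strand), was at 58.0, 59.0 and 57.1 CPM in ESC WT, 71.8, 68.1 and 70.2 CPM in ESC dCD and 47.0, 50.9 and 53.3 CPM in ESC MLL2dTAG. In NPC it was at 220.4, 232 and 219 CPM in WT, 196, 188 and 186 CPM in dCD and 202, 198 and 199.6 CPM in MLL2dTAG. Both edited NPC groups lay below WT.

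Gli1, the activator that is itself a target (chromosome 10, 127329882 to 127341974, minus strand), was at 53.2, 59.0 and 55.3 CPM in ESC WT, 49.0, 44.9 and 44.9 CPM in ESC dCD and 35.6, 33.3 and 33.3 CPM in ESC MLL2dTAG. In NPC it was at 50.0, 53.7 and 51.0 CPM in WT, 66.2, 66.7 and 64.0 CPM in dCD and 43.8, 41.6 and 39.9 CPM in MLL2dTAG. Gli1 was the lowest in MLL2dTAG at both stages, and dCD was below WT in ESC and above it in NPC. Gli1 overlaps Arhgap9 on the plus strand, and whether the counting used strand is not given in the sources used here. Arhgap9 was at 7.10 to 9.21 CPM in ESC WT, and its highest NPC library was at 1.20 CPM. Gli2, the main activator (chromosome 1, 118834132 to 119053619, minus strand), ranged from 84.6 to 100.4 CPM in ESC WT, 93.1 to 95.4 CPM in ESC dCD and 93.7 to 101 CPM in ESC MLL2dTAG. Its NPC ranges were 76.5 to 80.8 CPM in WT, 79.9 to 90.7 CPM in dCD and 71.4 to 77.1 CPM in MLL2dTAG. Both edited lines overlapped WT at each stage. Gli3, the main source of the repressor form (chromosome 13, 15463235 to 15730026, plus strand), was at 21.7, 21.3 and 21.3 CPM in ESC WT, 30.4, 32.8 and 29.0 CPM in ESC dCD and 11.3, 11.5 and 10.4 CPM in ESC MLL2dTAG. In NPC it was at 126, 121 and 124 CPM in WT, 151, 156 and 148 CPM in dCD and 139.7, 131 and 134 CPM in MLL2dTAG. The order of the lines in ESC differed from that in NPC, where WT was the lowest.

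From ESC to NPC in WT cells, 10 of 10 genes were called, 7 higher and 3 lower, where called means adjusted p under 0.05 in edgeR's quasi-likelihood test with Benjamini-Hochberg adjustment. Over the genes tested, 79.5% were called in this comparison, 39.1% higher and 40.4% lower, so a call as such was common. The co-receptors rose: Gas1 by 6.22 ± 0.06 on the log2 scale (± SE here and below, n = 3 against 3), Boc by 2.65 ± 0.06 and Cdon by 1.29 ± 0.05. Hhip rose by 5.99 ± 0.14, Gli3 by 2.53 ± 0.05 and Smo by 1.95 ± 0.04, and for each of these 6 genes the adjusted p was at most 6.7e-24. The median log2 change of the 9 genes other than Shh was 1.95, against -0.04 over the genes tested. Ptch1 fell by 0.20 ± 0.04 (adjusted p = 5.0e-05) and Gli2 by 0.20 ± 0.05 (adjusted p = 0.00065). Once GC and length offsets were added they moved to -0.65 and -0.55, and without ESC WT replicate 2 they were -0.12 and -0.11. Without the filter on low counts Ptch1 was at -0.09 and Gli2 at -0.10, the latter not called. Gli1, at -0.12 ± 0.05 (adjusted p = 0.033), was not called without ESC WT replicate 2 (-0.07, adjusted p = 0.22), without NPC WT replicate 1 (-0.09, 0.14) or without NPC WT replicate 3 (-0.11, 0.099). It was also not called with DESeq2 (-0.10, 0.065), with its size factors in edgeR (-0.10, 0.063), with no filter (-0.02, 0.93) or in a fit of the compared groups alone (-0.08, 0.16), and it was at -0.31 under GC and length offsets and -0.20 under upper-quartile scaling. Without ESC WT replicate 2, 9 of the 10 genes were called, 7 higher and 2 lower.

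The edited lines were tested for the same step, with 10 of 10 genes called in each. In dCD, 9 were higher and 1 lower, beside 77.6% of the genes tested (38.7% higher, 39.0% lower). In MLL2dTAG the split was also 9 and 1, beside 78.2% (39.9% higher, 38.3% lower). Gas1 rose by 4.59 ± 0.06 in dCD and by 5.48 ± 0.06 in MLL2dTAG, Hhip by 7.09 ± 0.13 and 3.24 ± 0.10, and Gli3 by 2.30 ± 0.05 and 3.61 ± 0.05. Boc rose by 3.17 ± 0.06 and 2.45 ± 0.05, Cdon by 1.76 ± 0.05 and 1.43 ± 0.05, and Smo by 1.44 ± 0.04 and 1.98 ± 0.04. Gli1 rose by 0.50 ± 0.05 in dCD and by 0.29 ± 0.05 in MLL2dTAG. Gli2 fell by 0.15 ± 0.05 in dCD, which was not called when NPC dCD replicate 3 was left out (-0.11, adjusted p = 0.078), and by 0.38 ± 0.05 in MLL2dTAG. In dCD it was at -0.05 with no filter (not called, adjusted p = 0.41), -0.25 with upper-quartile scaling and -0.58 under GC and length offsets, which moved it to -0.60 in MLL2dTAG. Gli1 was at 0.27 under those offsets in dCD and at 0.17 with upper-quartile scaling in MLL2dTAG. Ptch1 was called higher in dCD (0.32 ± 0.04) and in MLL2dTAG (0.40 ± 0.04), but under GC and length offsets both values were below 0 and called (-0.18 and -0.09), so its direction between stages depends on that correction. Of the 9 genes other than Shh, Hhip had the widest spread of this step among the lines, as the plot of stage changes shows.

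**Figure D2:**
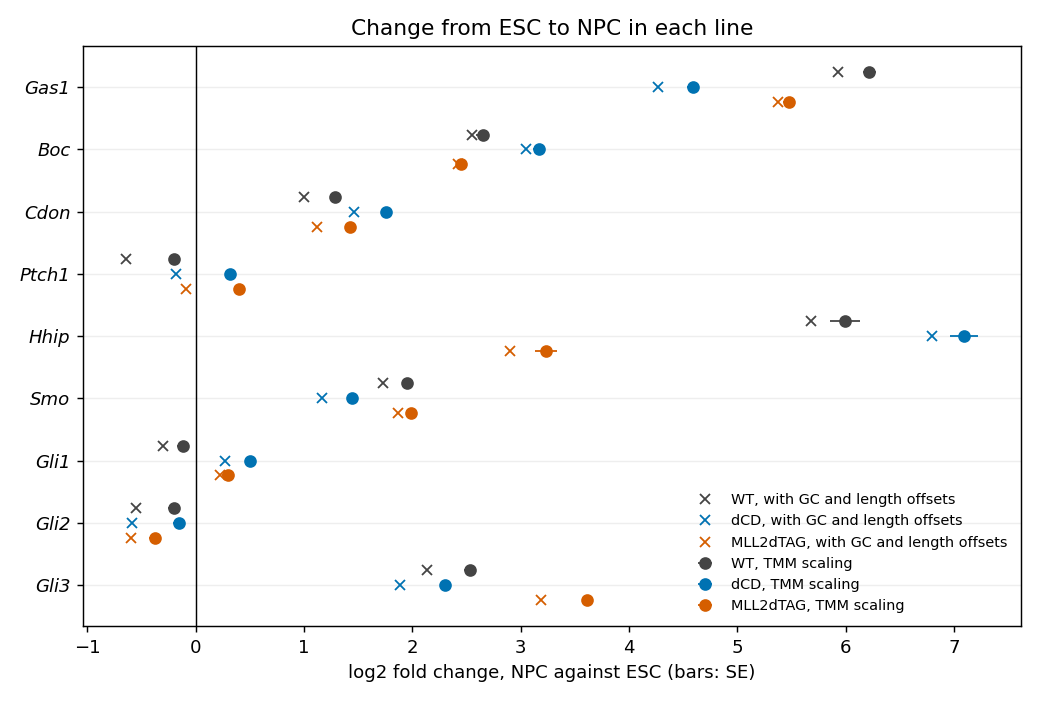
Log2 fold change of NPC against ESC for 9 genes (Shh is left out because its ESC libraries held 0 to 4 counts), with 1 dot per line (WT grey, dCD blue, MLL2dTAG orange; bars are SE) and a cross for the same change with offsets for GC content and length. Each cross lies left of its dot, and for Ptch1 in dCD and MLL2dTAG dot and cross lie on opposite sides of 0.

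In ESC, the dCD line differed from WT in both directions: the co-receptor Gas1 and the repressor Gli3 were higher, and the receptor Ptch1, Gli1 and Cdon were lower. Of the 10 genes 7 were called, 4 higher and 3 lower, beside 48.3% of the genes tested, 25.7% higher and 22.6% lower. Gas1 rose by 1.07 ± 0.10 on the log2 scale (adjusted p = 4.6e-11), Gli3 by 0.52 ± 0.06 (7.1e-10) and Smo by 0.27 ± 0.04 (3.2e-06). Ptch1 fell by 0.55 ± 0.04 (adjusted p = 2.9e-13), Cdon by 0.34 ± 0.05 (9.5e-07) and Gli1 by 0.28 ± 0.05 (3.9e-05). Without ESC WT replicate 2 the change of Ptch1 was -0.48, that of Gli1 -0.23 and that of Cdon -0.28, all called. Boc (0.12 ± 0.08), Hhip (0.07 ± 0.35) and Gli2 (0.06 ± 0.05) were not called, and Gli2 was called at 0.14 (adjusted p = 0.014) without ESC WT replicate 2 and at 0.16 (0.0018) under GC and length offsets. The fourth higher call, Shh, rests on 6 counts against 0 (adjusted p = 0.028), is near the limit of counting and did not hold when ESC WT replicate 2 (0.069), ESC WT replicate 3 (0.071) or ESC dCD replicate 3 (0.15) was left out. Shh was also not called with counts halved (adjusted p = 0.087). The median log2 change of the 9 other genes was 0.07, against 0.02 over the genes tested. Summed mesenchymal markers were at 740.0 to 828 CPM in ESC dCD against 464 to 579 CPM in ESC WT, and floor plate and notochord markers at 78.2 to 83.6 against 65.3 to 69.8 CPM. Of the latter list, T, Chrd, Spon1 and Ntn1 were at 1 CPM or more in both groups. Foxa2 was so in ESC WT but not in ESC dCD, and Noto was at 0 in both. Neural progenitor markers were at 82.9 to 91.4 against 67.6 to 75.4 CPM and endoderm markers at 11.8 to 12.8 against 15.7 to 17.7 CPM, and the part of these differences was not tested.

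In ESC, the MLL2dTAG line had more Hhip, Gas1 and Boc than WT and less Ptch1, Gli1 and Gli3. Of the 10 genes 8 were called, 3 higher and 5 lower, beside 56.9% of the genes tested, 28.7% higher and 28.2% lower. Hhip rose by 2.39 ± 0.23 on the log2 scale (adjusted p = 3.7e-11), from a mean of 0.411 to 2.20 CPM, so its level stayed low. Gas1 rose by 0.74 ± 0.10 (6.6e-08) and Boc by 0.67 ± 0.07 (3.2e-10). Gli3 fell by 0.96 ± 0.06 (adjusted p = 1.4e-15), Ptch1 by 0.74 ± 0.04 (2.6e-17) and Gli1 by 0.72 ± 0.05 (4.7e-14). Smaller decreases were called for Smo (-0.20 ± 0.04) and Cdon (-0.19 ± 0.05). Gli2 (0.09 ± 0.05, adjusted p = 0.12) was called with no filter (0.15, 0.0060) and without ESC WT replicate 2 (0.18, adjusted p = 0.0011), when Ptch1 and Gli1 were both at -0.67 and Cdon at -0.14. The median absolute log2 change of the 9 genes other than Shh was 0.72, against 0.40 over the genes tested, which describes size and not direction. Summed floor plate and notochord markers, the textbook sources of Shh, were at 165 to 168 CPM in this group against 65.3 to 69.8 CPM in ESC WT, with Noto at 0 in both. That list did not move as one: T, Chrd and Ntn1 were at 1 CPM or more in both groups, and Foxa2 and Spon1 were so in ESC WT but not in ESC MLL2dTAG. Mesenchymal markers were at 841 to 897 CPM against 464 to 579 CPM, pluripotency markers at 3347 to 3448 against 2753 to 2888 CPM, and endoderm markers at 28.5 to 30.7 against 15.7 to 17.7 CPM. The part of these marker differences was not tested. In NPC WT, where Shh was read, the floor plate and notochord sum was at 36.3 to 40.2 CPM, below ESC WT. In the other NPC groups the sum was at 42.8 to 45.0 CPM in MLL2dTAG and 46.3 to 51.7 CPM in dCD. How the sum relates to Shh was not tested.

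In NPC, the dCD line carried more than double the Hhip of WT, more Boc, Gli1 and Gli3, and less Gas1 and Smo, with no difference called in Shh or Ptch1. Of the 10 genes 7 were called, 5 higher and 2 lower, beside 53.5% of the genes tested, 26.7% higher and 26.8% lower. Hhip rose by 1.17 ± 0.06 on the log2 scale (2.25-fold, adjusted p = 1.6e-17), Boc by 0.64 ± 0.05 (1.4e-14), Gli1 by 0.35 ± 0.05 (1.8e-07) and Gli3 by 0.30 ± 0.04 (4.9e-08). Gas1 fell by 0.56 ± 0.04 (adjusted p = 9.9e-15) and Smo by 0.24 ± 0.04 (1.5e-06). Cdon was higher by 0.14 ± 0.04 (adjusted p = 0.0075), and leaving out NPC dCD replicate 2 ended this call (0.11, 0.054). Shh was at 0.00 ± 0.14, with a 95% interval from -0.29 to 0.30, and Ptch1 at -0.03 ± 0.04, with an interval from -0.12 to 0.06. Ptch1 was called lower with offsets for GC content and length (-0.09, adjusted p = 0.0078). Gli2 was at 0.10 ± 0.05 (adjusted p = 0.091) and was called without NPC dCD replicate 3 (0.14, 0.032), with no filter (0.12, 0.037), under GC and length offsets (0.12, 0.011) and in a fit of the compared groups alone (0.11, 0.021). Cdon was at 0.09 under the offsets. Of the named targets of the pathway, Hhip and Gli1 thus rose while Ptch1 was not called in this fit. Neural progenitor and neuron markers moved in the same group (neuron markers 209.5 to 217 CPM in WT and 327 to 352 CPM in dCD), and their part was not tested. The neuron sum was at 357 to 437 CPM in ESC WT. There 4 of the 8 neuron markers were at 1 CPM or more, against 8 in NPC WT and in NPC dCD. How far the sum reflects the number of neurons was not tested.

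In NPC, the MLL2dTAG line differed from WT by smaller steps: Boc and Shh were higher, and Hhip, Gli1, Smo and Ptch1 were lower. Of the 10 genes 7 were called, 3 higher and 4 lower, beside 61.7% of the genes tested, 33.3% higher and 28.4% lower. Boc rose by 0.47 ± 0.05 on the log2 scale (adjusted p = 2.5e-11). Hhip fell by 0.37 ± 0.07 (adjusted p = 1.5e-05), Gli1 by 0.31 ± 0.05 (2.1e-06), Smo by 0.16 ± 0.04 (0.00028) and Ptch1 by 0.14 ± 0.04 (0.0025). Shh was higher by 0.36 ± 0.13 (adjusted p = 0.020), a call lost without NPC WT replicate 1 (0.26, 0.13), without NPC MLL2dTAG replicate 3 (0.25, 0.15), with upper-quartile scaling (0.27, 0.082) and under GC and length offsets (0.28, 0.060). Gli3 was higher by 0.13 ± 0.04 (adjusted p = 0.0046), and not called with upper-quartile scaling (0.04, 0.43) or without the filter on low counts (0.09, 0.13). Smo was at -0.08 under GC and length offsets and -0.25 with upper-quartile scaling, which put Ptch1 at -0.23, and each of these was called. Gli2 (-0.08 ± 0.05), Cdon (-0.05 ± 0.04) and Gas1 (-0.00 ± 0.04, interval -0.08 to 0.08) were not called. With upper-quartile scaling all 3 were called lower (Gli2 -0.18, Cdon -0.14, Gas1 -0.09), and under GC and length offsets Gas1 was called higher (0.11), so the direction of Gas1 here depends on the scaling. Gli2 was also called with no filter (-0.12, 0.029), and Gli2 (-0.14, 0.00075) and Cdon (-0.10, 0.0025) in a fit of the compared groups alone, where Gli3 was at 0.08. The median absolute log2 change of the 9 genes other than Shh was 0.14, against 0.42 over the genes tested.

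**Figure D3:**
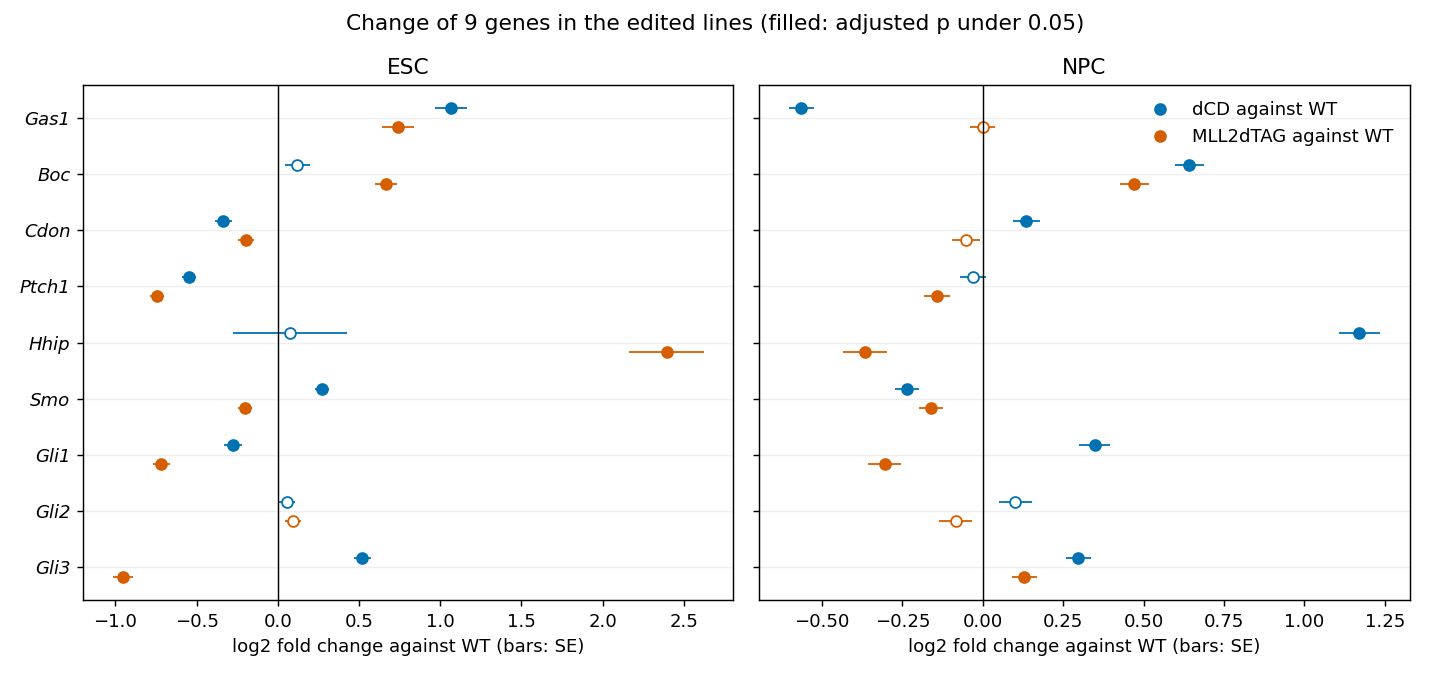
Log2 fold change of dCD (blue) and MLL2dTAG (orange) against WT for 9 genes in ESC (left) and NPC (right, on a narrower axis), with SE bars, and filled points where adjusted p was under 0.05. Shh is left out because its ESC libraries held 0 to 4 counts. Hhip is far right in MLL2dTAG ESC (2.39) and in dCD NPC (1.17), and Gas1 is right of 0 in both ESC lines and left of 0 in dCD NPC.

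Whether a genotype's change differed between stages was tested as the change in NPC minus the change in ESC. For dCD, 9 of 10 genes were called, 5 higher in NPC and 4 lower, beside 42.9% of the genes tested, 20.0% higher and 22.9% lower. Gas1 had the largest difference among genes counted well at both stages, at -1.63 ± 0.11 on the log2 scale (adjusted p = 6.6e-15), since dCD had more Gas1 in ESC and less in NPC. Smo turned in the same way (-0.51 ± 0.06, adjusted p = 4.3e-09). Gli1 (0.62 ± 0.07, adjusted p = 5.6e-09) and Cdon (0.47 ± 0.07, 3.1e-07) turned the opposite way, from lower to higher. The higher Cdon in NPC was not called without NPC dCD replicate 2 (0.11, adjusted p = 0.054). The lower Ptch1 of ESC was not called in NPC, and that difference was 0.52 ± 0.06 (adjusted p = 3.1e-09). Boc (0.52 ± 0.09) and Gli3 (-0.22 ± 0.07) also differed. Hhip, at 1.10 ± 0.36 (adjusted p = 0.014), rests on 8 to 14 counts in the ESC libraries of WT and dCD and was not called without ESC dCD replicate 2 (0.95, 0.051) or with counts halved (1.10, 0.069). The Shh term rests on the 6 ESC counts above, and it was not called when ESC WT replicate 1 (adjusted p = 0.053), 2 (0.074) or 3 (0.078) or ESC dCD replicate 1 (0.054) or 3 (0.16) was left out. With counts halved the Shh term was also not called (adjusted p = 0.095). Without ESC WT replicate 2, 8 of 10 genes were called.

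For MLL2dTAG, 6 of 10 genes were called, 3 higher in NPC and 3 lower, beside 49.0% of the genes tested, 26.4% higher and 22.6% lower. Hhip turned from higher in ESC to lower in NPC (-2.76 ± 0.24, adjusted p = 4.1e-12). Gli3 turned from lower to higher (1.08 ± 0.07, adjusted p = 7.5e-15), although its NPC call did not hold under each scaling. The decreases of Ptch1 and Gli1 in ESC were smaller in NPC, with differences of 0.60 ± 0.06 (adjusted p = 6.6e-11) and 0.41 ± 0.07 (1.1e-05). The higher Gas1 of ESC was not seen in NPC (-0.74 ± 0.11, adjusted p = 3.6e-07). Gli2 (-0.18 ± 0.07, adjusted p = 0.039) was not called in 7 of the 12 fits that left out 1 library: ESC WT replicate 1 (-0.14, adjusted p = 0.12) or 3 (-0.14, 0.12), ESC MLL2dTAG replicate 3 (-0.14, 0.14), NPC WT replicate 1 (-0.16, 0.085) or 2 (-0.17, 0.072), and NPC MLL2dTAG replicate 2 (-0.15, 0.12) or 3 (-0.19, 0.051). It was at -0.26 (adjusted p = 0.00035) without ESC WT replicate 2, -0.27 with no filter and -0.05 (not called, 0.53) under GC and length offsets, and was also not called at 1 CPM or more in 3 libraries (-0.17, 0.050). Boc (-0.20 ± 0.08, adjusted p = 0.051), Cdon (0.14 ± 0.07) and Smo (0.04 ± 0.06) were not called. Boc was called without ESC WT replicate 3 (-0.24, 0.032) or NPC MLL2dTAG replicate 2 (-0.23, 0.030), and Cdon without ESC WT replicate 1 (0.19, 0.0085), while without ESC WT replicate 2 Cdon was at 0.08 (0.28). Boc was also called with upper-quartile scaling (-0.23, 0.017), DESeq2 (-0.21, 0.034), its size factors (-0.22, 0.029) and no filter (-0.29, 0.012). Cdon was also called at 1 CPM or more in 3 libraries (0.15, 0.044) and with counts halved (0.15, 0.044), and Smo under GC and length offsets (0.14, 0.017).

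The comparisons of both lines with WT share the WT libraries, so the lines were also set against each other directly. In ESC, 8 of 10 genes were called for MLL2dTAG against dCD, 3 higher and 5 lower, beside 47.2% of the genes tested, 23.4% higher and 23.7% lower. Hhip was higher in MLL2dTAG by 2.32 ± 0.23 on the log2 scale and Boc by 0.55 ± 0.07. Gli3 was at -1.48 ± 0.06, Smo at -0.47 ± 0.04, Gli1 at -0.44 ± 0.05, Gas1 at -0.33 ± 0.09 and Ptch1 at -0.19 ± 0.04. Shh, with 2 counts against 6, was not called, and was called without ESC MLL2dTAG replicate 3, where 0 counts stood against 6 (adjusted p = 0.048). Cdon, at 0.14 ± 0.05 (adjusted p = 0.019), was lost without ESC dCD replicate 1 (0.068), ESC dCD replicate 2 (0.12), ESC MLL2dTAG replicate 2 (0.075) or ESC MLL2dTAG replicate 3 (0.080), and with upper-quartile scaling (0.09, 0.16). In NPC, 9 of 10 were called, 2 higher and 7 lower, beside 55.9% of the genes tested, 31.6% higher and 24.3% lower. Hhip was lower in MLL2dTAG (-1.54 ± 0.07, adjusted p = 6.1e-21), as was Gli1 (-0.65 ± 0.05, 8.4e-14), and Gas1 was higher (0.56 ± 0.04, 7.5e-15). Gli2 (-0.19 ± 0.05), Cdon (-0.19 ± 0.04), Boc (-0.17 ± 0.05) and Gli3 (-0.17 ± 0.04) were lower by less. Under GC and length offsets Gli2 (-0.09, adjusted p = 0.070) and Ptch1 (-0.06, 0.093) were not called and Smo was called higher (0.13, 0.00038). Shh was not called with upper-quartile scaling (0.27, 0.087) or no filter (0.29, 0.073), while Ptch1 was then at -0.20 and -0.17, and at -0.17 in a fit of the compared groups alone. The calls of Shh (0.35 ± 0.13, adjusted p = 0.024) and Ptch1 (-0.11 ± 0.04, 0.018) were each lost when single libraries were left out: Shh without NPC dCD replicate 2 (0.33, 0.079) or NPC MLL2dTAG replicate 3 (0.25, 0.17), and Ptch1 without NPC dCD replicate 2 (-0.10, 0.070), NPC dCD replicate 3 (-0.11, 0.054) or NPC MLL2dTAG replicate 1 (-0.10, 0.084). At both stages the lines were thus told apart most by Hhip and Gli1 among the transcriptional targets of the pathway.

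The rest of the pathway was read from 5 lists, whose counts of called genes stand beside the shares called over the genes tested: 79.5% from ESC to NPC in WT, 48.3% and 56.9% for dCD and MLL2dTAG in ESC, and 53.5% and 61.7% for the same lines in NPC. Of 7 genes of the ligand family, its processing and its release, 6 rose and 1 fell from ESC to NPC in WT, with a median log2 change of 2.15 against -0.04 over the genes tested. The second ligand Ihh (3.81 ± 0.25) and Scube1 (4.47 ± 0.13), whose family helps release the ligand, had the largest increases among those with a mean of at least 1 CPM. In NPC MLL2dTAG, 3 of these 7 were higher and 2 lower, so that 5 of 7 called stood beside 61.7% (33.3% higher, 28.4% lower). Ihh rose from 5.22 to 18.7 CPM (1.84 ± 0.13, adjusted p = 1.9e-14), Scube2 from 4.69 to 13.0 CPM (1.47 ± 0.11), and Hhat, the acyltransferase that palmitoylates the ligand, fell from 6.88 to 1.40 CPM (-2.27 ± 0.18, adjusted p = 2.5e-13). Endoderm markers, which were higher in the same group as given above, include no member of this list, and their part in the increase of Ihh was not tested. In NPC dCD, 3 were higher and 2 lower, beside 53.5% called, with Ihh at 2.69 CPM (-0.95 ± 0.16, adjusted p = 4.6e-06). In ESC, 2 were higher and 2 lower in dCD (48.3% called over the genes tested), and 2 higher and 1 lower in MLL2dTAG (56.9%), where Scube1 rose by 1.23 ± 0.19.

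Of the reception and relay list, 12 of 14 symbols were in the table. In WT, 8 rose and 4 fell from ESC to NPC, led by Gpr161 (2.45 ± 0.07), a ciliary receptor that restrains the pathway, while the beta-arrestin Arrb1 fell by 1.31 ± 0.05. The edited groups had 2 higher and 7 lower in ESC dCD, 1 and 5 in ESC MLL2dTAG, 3 and 7 in NPC dCD, and 4 and 7 in NPC MLL2dTAG. Over the genes tested, the shares called lower were 22.6%, 28.2%, 26.8% and 28.4%, and the shares called in either direction 48.3%, 56.9%, 53.5% and 61.7%. In ESC MLL2dTAG the 6 of 12 called were thus no more than the share over the genes tested. The medians were -0.12, -0.08, -0.16 and -0.29, against 0.02, -0.00, -0.02 and 0.03 over the genes tested. Arrb1 fell in both ESC lines (-1.02 ± 0.05 and -1.80 ± 0.05). Evc and Iqce, parts of the complex that relays the signal from smoothened at the cilium base, fell in NPC MLL2dTAG, by 1.35 ± 0.06 and 1.11 ± 0.06 (from 51.2 to 20.1 CPM and from 61.0 to 28.3 CPM). Their partner Evc2 fell in NPC dCD by 0.59 ± 0.05 (from 66.1 to 43.9 CPM).

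The 8 cilium genes, which are needed for the pathway because smoothened acts there, rose in WT NPC in 7 cases and fell in 1. In NPC dCD, 7 of 8 were lower and 1 higher, and in NPC MLL2dTAG 7 of 8 were lower and 0 higher, with medians of -0.33 and -0.34 against -0.02 and 0.03 over the genes tested. The shares called lower over the genes tested were 26.8% and 28.4%, and those called in either direction 53.5% and 61.7%. The remaining gene in NPC MLL2dTAG was not called. Dync2h1, the heavy chain of the retrograde ciliary motor, had the largest decrease in both, from 125 CPM to 89.5 CPM in dCD (-0.48 ± 0.05) and to 54.8 CPM in MLL2dTAG (-1.19 ± 0.05). In ESC the split was 2 higher and 4 lower in dCD and 2 and 2 in MLL2dTAG. For the 11 genes of GLI regulation, 9 rose and 1 fell in WT NPC, with Stk36 at 2.20 ± 0.09 and Gsk3b at 1.41 ± 0.04. They were higher in 6 and lower in 3 cases in ESC dCD, 8 and 1 in ESC MLL2dTAG, 4 and 4 in NPC dCD, and 3 and 2 in NPC MLL2dTAG. The shares called over the genes tested were 48.3%, 56.9%, 53.5% and 61.7%, so that the 5 of 11 called in NPC MLL2dTAG were below the last of these. Sufu, which binds and restrains GLI proteins, rose in both ESC lines, by 0.45 ± 0.06 in dCD and 0.58 ± 0.06 in MLL2dTAG. Their medians in these 4 groups were 0.15, 0.33, -0.03 and 0.06, against 0.02, -0.00, -0.02 and 0.03 over the genes tested.

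Of 12 genes reported elsewhere as induced by hedgehog signalling, 11 were tested. In WT, 8 rose and 2 fell from ESC to NPC, with a median of 2.97, and Foxf1 (5.68 ± 0.22), Foxc2 (4.84 ± 0.16) and Nkx6-2 (-3.93 ± 0.33) moved most. In ESC, 5 were higher and 1 lower in dCD, and 5 higher and 2 lower in MLL2dTAG. These 6 of 11 and 7 of 11 called are near the 48.3% and 56.9% called over the genes tested. The cell-cycle gene Ccnd1 rose in both, by 0.82 ± 0.04 and 0.68 ± 0.04, and the ventral neural factor Nkx6-2 rose in MLL2dTAG by 1.77 ± 0.19. In NPC dCD, 2 were higher and 3 lower, beside 53.5% called over the genes tested: Nkx2-9 rose from 0.329 to 1.84 CPM (2.48 ± 0.33), Ccnd1 rose by 0.75 ± 0.04, and Mycn fell by 1.21 ± 0.04. In NPC MLL2dTAG, 6 were higher and 1 lower, beside 61.7%, among them Foxa2, a floor plate and endoderm factor that is also in the floor plate marker list (0.66 ± 0.10), and Foxf1, a mesenchymal factor (0.69 ± 0.10). The endoderm and mesenchymal marker sums of that group were also above WT, as given above, and their part was not tested. Many of these genes have other inputs, and the counts say nothing of the source of a change.

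**Figure D4:**
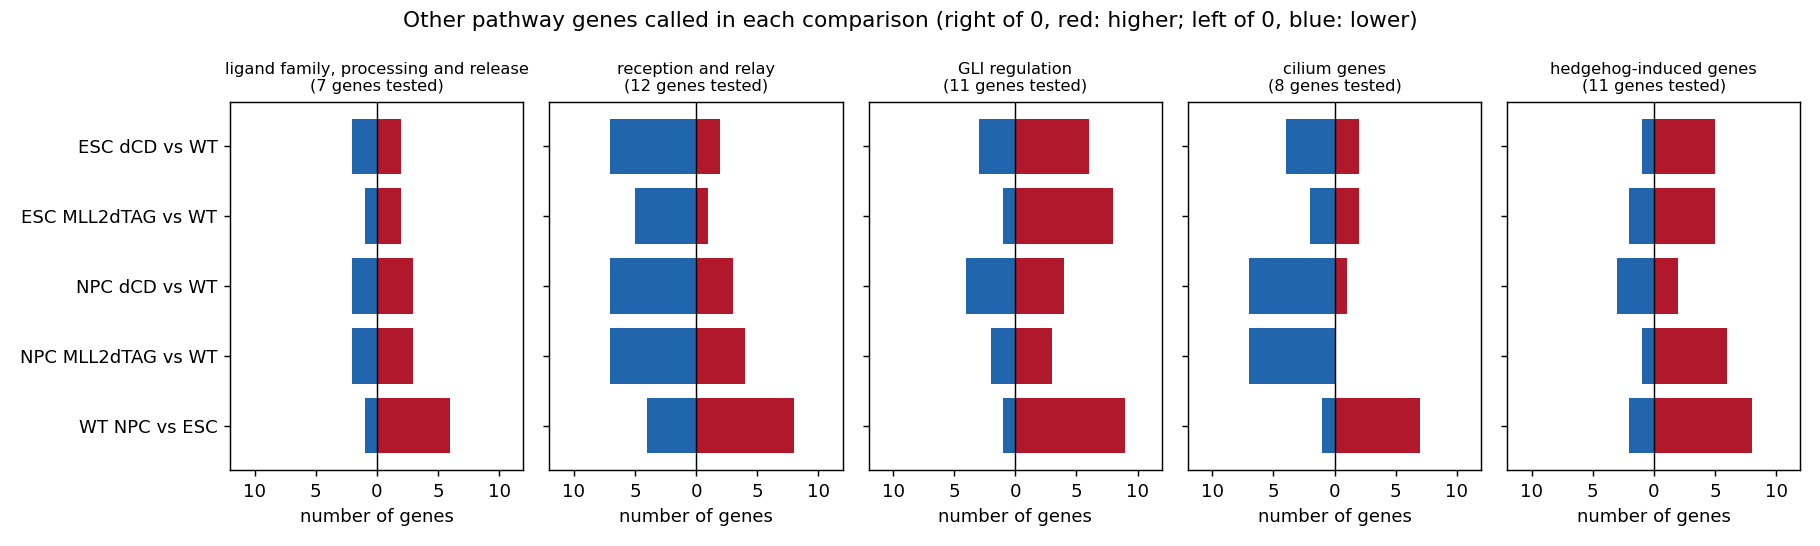
Number of genes called higher (red, right of 0) and lower (blue, left of 0) in each of 5 lists of other pathway genes (7, 12, 11, 8 and 11 genes tested), for 5 comparisons. Bars lie mostly to the right for the step from ESC to NPC in WT, and the cilium genes lie to the left in both NPC comparisons.

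As a description over 18 libraries, which form 6 groups of 3 that share stage and line, the genes with the pattern most like Shh by Pearson correlation of log2 CPM were Fam171a2 (0.996), A730017C20Rik (0.995), Dchs1 (0.994), Crtc3 (0.994) and Gpr173 (0.993). For Gli1 they were Cd276 (0.973), Rfx5 (0.961), Scamp1 (0.958), Reep2 (0.957) and Galnt3 (0.948), and for Ptch1 they were Slc4a8 (0.962), Slc39a8 (0.950), Cdh3 (0.939), Rassf4 (0.932) and Spon1 (0.930). None of the other 9 pathway genes was among the 5 nearest to Shh, Gli1 or Ptch1. For Shh the cut was close, with Gas1 at 0.993, Smo at 0.986, Boc at 0.969 and Cdon at 0.967. Gli3 was at 0.956 and Hhip at 0.930, while Gli1 was at 0.340, Ptch1 at 0.313 and Gli2 at -0.804.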

How the data were processed

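The deposited table holds unnormalized counts for each gene symbol, which the authors made with HTSeq, per the submitters' processing notes, and its version, the aligner and the strand setting are not given in the sources used here. Per the labels' protocols, libraries used the TruSeq Stranded mRNA kit. Columns were assigned to samples by name, 18 further columns of per-sample values were not used, and 18 of 36 samples in the series were not analysed here. In R 4.3.3 with edgeR 4.0.16, counts were filtered (filterByExpr by group, 20511 genes left), scaled with TMM factors (0.967 to 1.05) and fitted with 1 mean per group over 18 libraries (12 residual degrees of freedom). Tests were two-sided quasi-likelihood F tests, with Benjamini-Hochberg adjustment over all genes tested. SE comes from the fitted change and F. The fit was also run on simulated counts with the same spread for every gene and no outlying library. These data differ from that setting, so no result here rests on it. The 10 genes were named by rule. From each other list, the rule picks per comparison up to 2 called genes per direction with the largest change and a mean of at least 1 CPM. The text names some of these picks, chosen after their values were seen, and 1 is not reported here. Genes, lists and tests were chosen with earlier results of these data known. Alternatives were DESeq2 1.42.0, other scalings and filters, halved counts, GC and length offsets (GENCODE M21, GRCm38), a replicate block and leaving out each library.

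The 3-count floor and the exact intervals cover counting error only, since reads without molecular identifiers are not independent molecules. Of counts from 1 to 10, 60.8% to 66.5% per library were even, against 48.9% to 50.4% of counts over 1000, which is why counts were also halved. Positions are from GENCODE M21 on GRCm38.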

Additional observations from a re-analysis of the deposited data

Results flagged for a closer look

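The results below were flagged because the change of an edited line against WT differed between ESC and NPC by the interaction term of the same edgeR quasi-likelihood fit. Values are log2 differences, NPC minus ESC. For dCD they were 0.52 for Ptch1, 0.62 for Gli1, -0.22 for Gli3, 1.10 for Hhip, -0.51 for Smo, 0.52 for Boc, 0.47 for Cdon and -1.63 for Gas1. The fitted value for Shh was -4.43, which rests on 6 counts in ESC dCD against 0 in ESC WT and depends on how a count of 0 is treated. For MLL2dTAG they were 0.60 for Ptch1, 0.41 for Gli1, -0.18 for Gli2, 1.08 for Gli3, -2.76 for Hhip and -0.74 for Gas1. The calls of Shh and Hhip in dCD and of Gli2 in MLL2dTAG did not hold in every fit, as given above. Of the genes tested, 42.9% had such a difference for dCD and 49.0% for MLL2dTAG.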

How the results depend on the processing

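For the 10 genes and the named list genes, 195 results were recomputed under 3042 combinations with an alternative. In 2923 the call was as reported, 88 calls were lost and 27 were gained. The sign changed in 27, of which 23 were called in neither fit. The other 4 came from offsets for GC content and length: Ptch1 from ESC to NPC in dCD (-0.181) and in MLL2dTAG (-0.0914), and in NPC MLL2dTAG against WT Gas1 (0.11) and Scube3 (0.00594, against -0.11). The cause was not tested. No count of called genes moved by more than 1.5 times. The named list genes were picked among called genes with the largest changes, which favours calls that hold. The 2923 of 3042 is therefore no measure for genes at large.

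Same-numbered replicates did not deviate together (correlations of -0.0278 to 0.0320, against -0.0484 to 0.0422 for other pairs). With the replicate block, 10810 genes were called in NPC dCD, against 10968, and 12506 in NPC MLL2dTAG, against 12665. No call of the 10 genes changed under the block, and of the list genes Iqce in ESC MLL2dTAG was lost (0.17, adjusted p = 0.052).

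Upper-quartile scaling moved the median of all genes by -0.11 for MLL2dTAG from ESC to NPC. For MLL2dTAG against dCD in NPC it turned the share of higher calls from 56.5% to 45.2%. Without the filter, the share for MLL2dTAG by stage went from 53.9% to 43.8%. List calls that single libraries ended include Hhat in ESC dCD (0.44, adjusted p = 0.13, without ESC WT replicate 2). Depth limits Shh in ESC, where 3 counts are 0.0783 to 0.160 CPM.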
